A study of Paeonia lutea x Paeonia suffruticosa with 9 samples.

Results

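SEPALLATA (SEP) genes encode the class E MADS-box factors of the flower, and 3 SEP transcripts are described here from floral buds of ‘High Noon’, a reblooming tree peony. They were taken from the study's list of 26 differentially expressed genes (DEGs) of floral development, as the transcripts matched there to Arabidopsis SEP3 (clusters c49771 and c231904) and to SEPALLATA2 (c30233). They are 3 of the 137758 transcripts in the deposited files, and all 3 were found by identifier. This total is larger than the number of non-redundant transcripts that the study gives as its mapping reference, for a reason it does not state. The study chose its list on these same libraries without naming the comparison of each DEG, so the tests below are not independent evidence that SEP transcripts change. ‘High Noon’ is a hybrid of Paeonia lutea and P. suffruticosa, and the sample labels give plants 5 years old. The study's methods instead give an age range of 3 to 5 years. Floral buds were collected at 3 stages with 3 libraries each and no treatment, the outer scales and leaves having been discarded. The stages are the vegetative meristem (stage I, libraries S1_1 to S1_3), the floral meristem (stage II, S2_1 to S2_3) and the floral organ (stage III, S3_1 to S3_3). These names are from the study's methods, whereas a figure caption of the study describes stage II as the time when floral organs differentiated. The stage was read from sections of buds fixed in parallel, not from the sequenced buds themselves, and how many buds went into a library is not given in the sources used here.

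In Arabidopsis, SEP proteins act as partners that hold other MADS-box proteins together in complexes of 4. Class A proteins such as AP1, class B proteins such as PI and class C proteins need these partners to specify sepals, petals, stamens and carpels. SEP3 binds the widest range of partners and also promotes the step from floral meristem to organ formation, whereas SEP2 overlaps in function with its close relative SEP1. SEP genes are known for being switched on in young floral meristems, after the meristem identity genes LFY and AP1.

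Each library held 20065002 to 25195520 fragments, the largest total being 1.26 times the smallest. One library stood apart from its replicates: S1_3 had a squared Pearson correlation of log2(FPKM + 1) over all transcripts of 0.851 and 0.861 with the other stage I libraries, against at least 0.9499 for every other pair of replicates. By the study's own values, each stage I library had a lower RNA integrity number and mapping rate than every stage II and III library. In comparisons with stage I, stage and these measures cannot be told apart. FPKM scales the fragments on a transcript by its length and by the library size, so it allows levels of different transcripts to be compared. No transcript sequence was used here, and the symbols are those of the study's list. Of the SEP transcripts, that list gives c49771 the lowest percent identity to its Arabidopsis match and c231904 the highest. The word copies below stands for the SEP transcripts and does not mean that they come from copies of the same gene. Read by the usual naming of long-read clusters, the identifier of c49771 gives a high-quality consensus of 2 full-length reads and a length of 1159 bp. Those of c231904 (1102 bp) and c30233 (911 bp) were low-quality consensus sequences of 1 full-length read each and no partial read. Clusters of 1 full-length and no partial read, of either quality class, made up 32.7% of all transcripts. The expected counts of RSEM were whole numbers for c30233 in all 8 libraries where it had reads. They were whole in 1 of 9 libraries for c49771 and in 0 of 6 for c231904 (tolerance 0.005), so part of the reads of both SEP3 transcripts was divided among similar transcripts.

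SEP3 (c49771) was the copy present in every library. Its FPKM was 1.18, 0.81 and 1.18 in the stage I libraries, from 14.15 to 22.83 reads each. It was 7.04, 6.20 and 10.01 in stage II, and 15.20, 9.42 and 10.10 in stage III. The stage I libraries lay below all others, S1_3 being level with S1_1 for this transcript, while stages II and III overlapped. Stage I averaged 1.06 ± 0.214 (SD, n = 3), stage II 7.75 ± 2.0 and stage III 11.6 ± 3.16. Among the transcripts with reads in a stage, this mean stood at the 46.1 percentile in stage I, the 78.4 percentile in stage II and the 84.9 percentile in stage III. In bulk buds, fewer cells of a type and less RNA per cell cannot be told apart.

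SEP3 (c231904), matched to the same Arabidopsis gene, was given 0 reads in all 3 stage I libraries, which allows up to 3 reads in each. Its FPKM in stage II was 6.07, 1.43 and 1.36, so S2_1 was more than 4 times either of the others. In stage III it was 15.01, 5.35 and 11.74. The lowest stage III library, S3_2, lay below the highest stage II library, S2_1. Stage II averaged 2.95 ± 2.70 (SD, n = 3) and stage III 10.7 ± 4.91. If each stage I library is set to 3 reads, the normalized counts (CPM, scaled by TMM library size) were 14.6-fold higher in stage II and 55.0-fold higher in stage III. These folds are not lower bounds, because RSEM decided how reads were shared with similar transcripts.

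SEPALLATA2 (c30233) was the lowest of the 3 in stages II and III. Stage I gave it 7, 0 and 5 reads (FPKM 0.53, 0 and 0.36). In stage II it had 44, 14 and 9 reads (FPKM 2.77, 0.91 and 0.70), and again S2_1 was the high library. In stage III it had 91, 40 and 60 reads (FPKM 7.11, 3.06 and 4.19). All stage III libraries lay above all stage II libraries in FPKM and in normalized CPM, but not in reads, with 40 in S3_2 against 44 in S2_1. In normalized CPM the nearest libraries were S2_1 at 1.61 and S3_2 at 1.86. By that measure, 12.0% of all transcripts tested between these stages were separated in this direction. The means were 0.297 ± 0.271 (SD, n = 3), 1.46 ± 1.14 and 4.79 ± 2.09 for stages I, II and III.

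**Figure D1:**
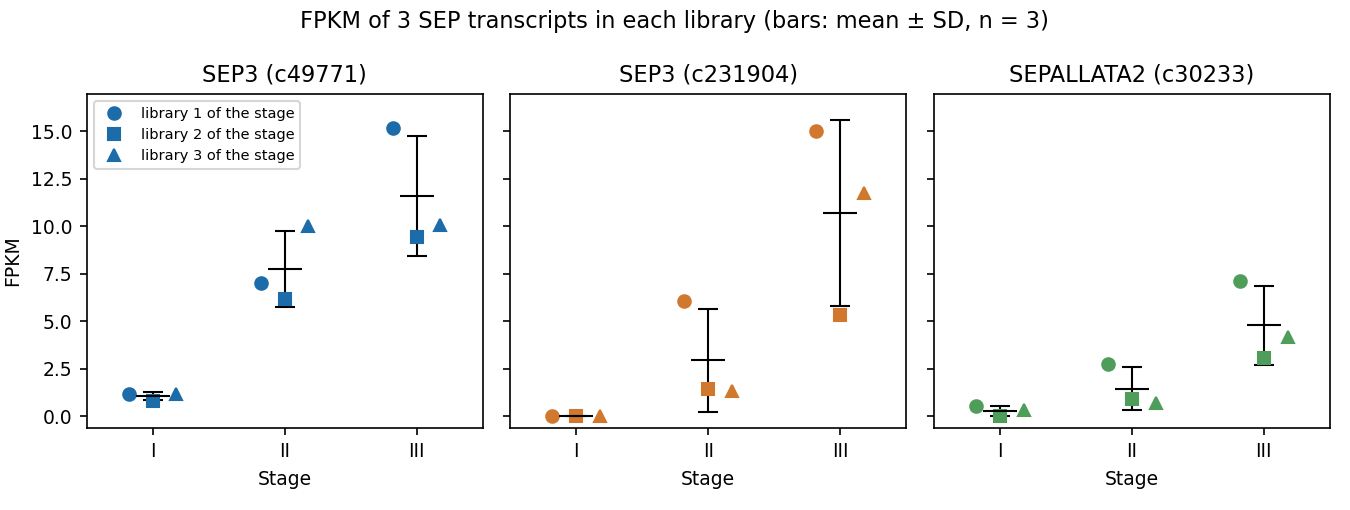
FPKM (vertical axis) of each SEP transcript in the 9 libraries by stage; points are libraries and bars are the mean ± SD of 3 libraries. SEP3 (c49771) was at 6.20 or more in every stage II library, while SEP3 (c231904) and SEPALLATA2 (c30233) were high in stage II only in S2_1.

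To ask when the copies changed, pairs of stages were tested in edgeR (quasi-likelihood test on 6 libraries), with q values adjusted over all transcripts tested. A transcript was called at q under 0.05 if it also changed by more than 2-fold. Shares of all transcripts given beside calls are of those that the method tested, so their bases differ between methods. For DESeq2 the base is every transcript with a p-value, whether or not it was given a q value. From stage I to stage II, both SEP3 transcripts rose, where 9.49% of the 64662 transcripts tested were called higher. The libraries of these stages did not overlap for either, a separation in this direction that 25.0% of all tested transcripts had. The log2 fold change of SEP3 (c49771) was 2.71, with an SE of 0.34 (edgeR q = 0.00766). For c231904 the q value in edgeR was 0.0228, and no fitted fold is given because stage I had 0 reads. Its call was lost without S1_2 or without any 1 of the stage II libraries, with q values in edgeR of 0.0537 to 0.0677. SEPALLATA2 did not pass edgeR's filter on low counts in this comparison. Where it was tested, its q value was 0.254 in edgeR without the filter, 0.110 in edgeR with all 9 libraries in 1 fit, 0.197 in DESeq2 and 0.208 to 0.261 in the 4 edgeR fits with 1 library left out that kept it.

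From stage II to stage III, 0 of the 3 SEP transcripts was called, where 0.734% of 64971 transcripts were called higher. At an unadjusted p under 0.05 edgeR had 2 of the 3, where 17.4% of all transcripts passed in either direction, and DESeq2 called 1 and limma 0 of the 3, where they called 0.929% and 1.0% of all transcripts higher. SEP3 (c49771) had the smallest difference, a log2 fold change of 0.58 with a 95% interval from -0.03 to 1.20 (q = 0.309 in edgeR). For c231904 the log2 fold change was 1.89 with an interval from 0.40 to 3.38 (q = 0.188 in edgeR, q = 0.0277 in DESeq2). For SEPALLATA2 it was 1.72 with an interval from 0.40 to 3.05 (q = 0.176 in edgeR, q = 0.0648 in DESeq2). Without S2_1 the log2 fold changes of the last pair became 2.92 (q = 0.0635 in edgeR) and 2.52 (q = 0.0801), and that of c49771 became 0.49. A log2 fold change of 1 lies inside all 3 intervals.

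From stage I to stage III, all 3 SEP transcripts rose, where 11.9% of 65124 transcripts were called higher. The log2 fold change was 3.30 with an SE of 0.34 (edgeR q = 0.00306) for SEP3 (c49771) and 3.82 with an SE of 0.90 (edgeR q = 0.0252) for SEPALLATA2. For c231904 the q value in edgeR was 0.00535. The stage I and III libraries did not overlap for any of the 3, which held in this direction for 27.1% of all tested transcripts. The call of SEPALLATA2 was lost in edgeR without S3_1 (q = 0.1), without S3_2 (q = 0.0662) or without S3_3 (q = 0.0843). Leaving out S1_3 ended none of the SEP calls of this comparison. At the q value under 0.001 that the study states, edgeR on 6 libraries called 0 of the 3 in each comparison, as it called 0%, 0.00616% and 0.00614% of all transcripts from stage I to II, II to III and I to III. With all 9 libraries in 1 fit, edgeR called c49771 at this limit from stage I to II (q = 0.000862) and from I to III (q = 0.000328), and 0 of the 3 from II to III, against 2.45%, 4.25% and 0% of all transcripts. DESeq2 at this limit called 2, 0 and 3 of the 3, against 7.76%, 1.16% and 10.1% of all transcripts. For limma on log2(FPKM + 1) these counts were 0, 0 and 1, against 0.638%, 0.0194% and 2.87%.

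The relative level of the copies is best read within a library, where depth and normalization cancel. The division of reads among similar transcripts by RSEM does not cancel, so shares and ratios that involve either SEP3 transcript depend on it. In stage I, c49771 held 69.0%, 100% and 76.6% of the summed FPKM of the 3 transcripts, and SEPALLATA2 held the rest. In stage II the share of c49771 was 44.3% in S2_1, 72.6% in S2_2 and 82.9% in S2_3. In stage III it was 40.7%, 52.8% and 38.8%, and c231904 held 40.2%, 30.0% and 45.1%. Thus c49771 was the highest copy in 8 of 9 libraries, the exception being S3_3, where c231904 was 1.16 times as high. In stage III the means of the SEP3 transcripts differed by less than the SD of either, while SEPALLATA2 was below both in each library, at 17.4% ± 1.5 (SD, n = 3) of the sum. Added together, the 3 copies had an FPKM of 1.35 ± 0.478 (SD, n = 3) at stage I, 12.2 ± 3.67 at stage II and 27.1 ± 9.79 at stage III.

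**Figure D2:**
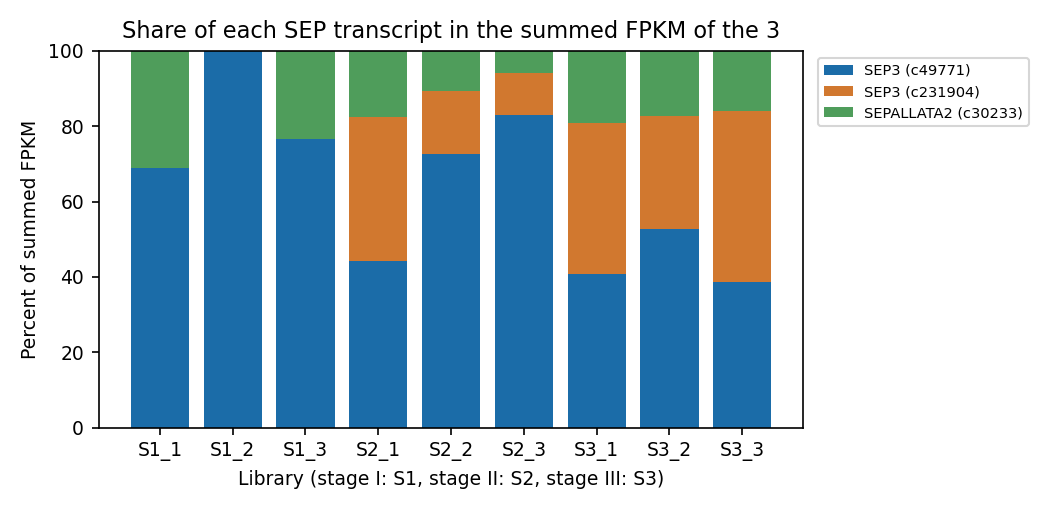
Stacked bars give the percent of the summed FPKM of the 3 SEP transcripts that each holds (vertical axis) in each library (horizontal axis). The makeup of S2_1, with 44.3% for c49771 and 38.2% for c231904, lay within the range of the stage III libraries, while S2_2 and S2_3 were led by c49771 at 72.6% and 82.9%.

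Ratios between copies were compared between stages II and III over libraries, with 3 ratios tested by a two-sided exact permutation test. The FPKM of c231904 over that of c49771 was 0.862, 0.231 and 0.136 in stage II and 0.988, 0.568 and 1.16 in stage III. The mean log2 ratio was 1.53 higher in stage III (exact permutation test, p = 0.2, adjusted over the 3 ratios 0.3), and the stages overlapped through S2_1. The ratio of SEPALLATA2 to c49771 was 0.393, 0.147 and 0.0699 in stage II and 0.468, 0.325 and 0.415 in stage III, a log2 difference of 1.32 (exact permutation test, p = 0.2, adjusted 0.3). The smallest p that 3 libraries against 3 allow is 0.1, so no ratio could pass 0.05. By contrast, the ratio of SEPALLATA2 to c231904 stayed between 0.357 and 0.636 over the 6 libraries, a span of 1.78 times, and differed between the stages by -0.21 on the log2 scale (exact permutation test, p = 0.5, adjusted 0.5). The spans of the other ratios over the same libraries were 8.56 and 6.69 times. SEPALLATA2 and c231904, matched to different Arabidopsis genes, were thus the pair with the steadiest proportion over these libraries, a description for which no test was run.

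Timing is given here as a description. The stage II mean of c49771 was 67.0% of its stage III mean, against 27.6% for c231904 and 30.5% for SEPALLATA2. Without S2_1 the values were 70.0% for c49771, 13.0% for c231904 and 16.8% for SEPALLATA2. In S2_2 and S2_3, c231904 was at 13.4% and 12.7% of its stage III mean and SEPALLATA2 at 19.0% and 14.6%, whereas c49771 was at 53.6% and 86.5%. In S2_1 the 3 copies lay close together, at 60.8%, 56.7% and 57.9%.

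The same stage II library was also high for other floral identity genes of the study's list. This group holds 8 transcripts matched to AP1, which acts in floral meristem identity and class A function, its relative FUL, the class B gene PI, the meristem identity regulator LFY and its cofactor UFO. S2_1 was the highest stage II library for all 8, as for 45.4% of 65083 transcripts with a mean of at least 10 reads in stage II. It was 3.35 times the mean of S2_2 and S2_3 for UFO (c105095), 2.27 times for UFO (c10259), 2.70 times for AP1 (c51214) and 7.96 times for PI (c9787), but 1.58 times for FUL, 1.78 times for AP1 (c128329) and 1.3 times for LFY. The second PI transcript (c42964) had reads in stage II in S2_1 alone. For c231904 and SEPALLATA2 the same measure was 4.35 and 3.44, while for c49771 it was 0.869. A value of at least 2 was reached by 4 of the 7 identity transcripts with a value, the second PI transcript having none. Of the 65083 transcripts, 6.98% reached it, and this share includes those found in S2_1 alone among the stage II libraries. In stage III, S3_1 was the highest library for all 3 SEP transcripts and for 6 of the 8 others, as for 31.4% of 64451 transcripts.

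**Figure D3:**
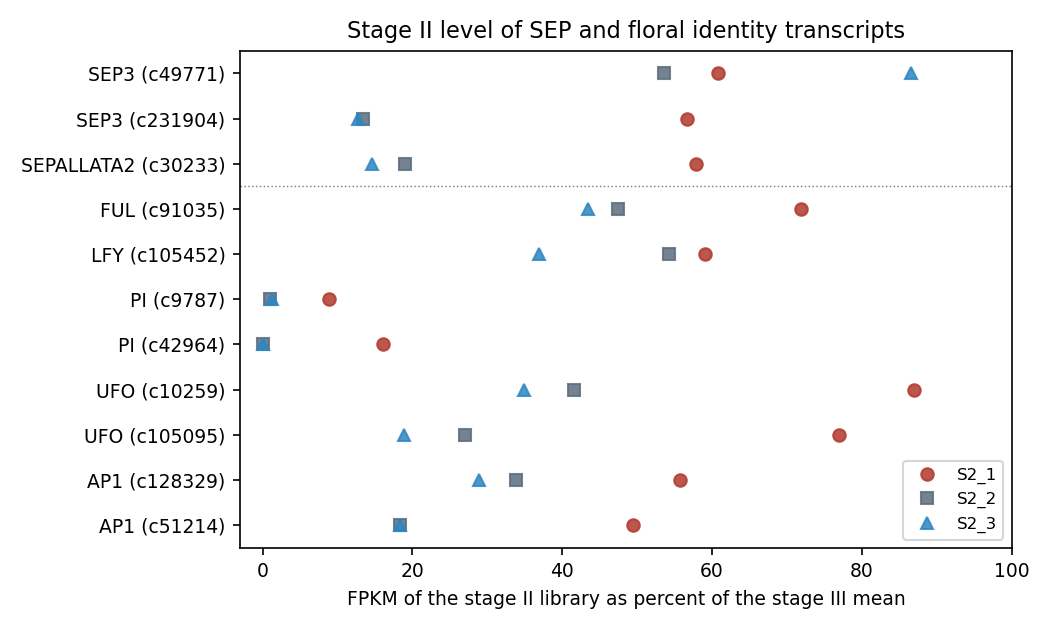
FPKM of each stage II library as percent of the stage III mean (horizontal axis) for the 3 SEP transcripts (above the dotted line) and 8 floral identity transcripts. S2_1 lay to the right of S2_2 and S2_3 for every transcript except SEP3 (c49771), for which S2_3 was highest at 86.5%.

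All calls among these 8 identity transcripts were rises. From stage I to II, 3 of the 5 that passed the filter rose and 0 fell, where 9.49% of all transcripts were called higher. These were FUL (c91035), AP1 (c128329) and UFO (c10259). The log2 fold change of FUL was 4.10 with an SE of 0.57 (edgeR q = 0.00902), and that of AP1 (c128329) was 3.38 with an SE of 0.93 (edgeR q = 0.0477). The call of AP1 (c128329) was lost in edgeR without any 1 library other than S1_3, with q values of 0.0860 to 0.137, and that of UFO (c10259) without any 1 of the stage II libraries, with q values of 0.0548 to 0.0625. From stage II to III, 1 of the 8 rose and 0 fell, where 0.734% of all transcripts were called higher. This was PI (c9787), at a log2 fold change of 4.74 and an SE of 0.74 (edgeR q = 0.0312), and its call was lost in edgeR without any 1 library other than S2_1, with q values of 0.0590 to 0.129. Without S2_1 the second PI transcript (c42964) was also called (edgeR q = 0.0296). DESeq2 called 3 of the 8, adding AP1 (c128329, q = 0.00622) and AP1 (c51214, q = 0.00975) to PI (c9787), and limma called both PI transcripts (q = 0.0271 for c42964). Over all transcripts, DESeq2 called 0.929% and limma 1.0% higher in this comparison. With all 9 libraries in 1 edgeR fit, 0 of the 8 was called (q = 0.142 for PI c9787), where 2 transcripts were called higher over all. PI (c9787) averaged an FPKM of 1.68 ± 2.03 (SD, n = 3) at stage II and 45.2 ± 18.7 at stage III, when its lowest library was above every SEP value. Its stage II mean was thus 3.71% of that in stage III, and that of the other PI transcript was 5.38%. Without S2_1 these values were 1.12% and 0%. For the remaining 6 identity transcripts this measure was 28.7 to 54.5%, a range that holds SEPALLATA2 at 30.5%. Without S2_1 it was 18.3 to 45.6%, above SEPALLATA2 at 16.8%. Both ranges lie below c49771 and above c231904. From stage I to III, 6 of the 8 rose and 0 fell, where 11.9% of all transcripts were called higher and 10.3% lower. The exceptions were LFY, at a log2 fold change of 2.07 with an SE of 1.0 (edgeR q = 0.172), and UFO (c105095), at 3.26 with an SE of 1.03 (edgeR q = 0.0597). Without S1_3, both were called in edgeR, at q values of 0.0385 and 0.0425. UFO (c105095) was also called by DESeq2 (q = 0.0131) and in edgeR with all 9 libraries in 1 fit (q = 0.0396), and LFY by limma (q = 0.0383). The call of AP1 (c128329) was lost in edgeR without S3_1 (q = 0.0572) or without S3_3 (q = 0.0570). Over all 23 other transcripts of the list, 11 rose and 3 fell from stage I to III of 22 tested, where 11.9% and 10.3% of all transcripts were called higher and lower, with a median log2 fold change of 1.60, against 0.02 over all transcripts. As the study picked the list on these libraries, these counts do not show that floral genes change more than others.

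**Figure D4:**
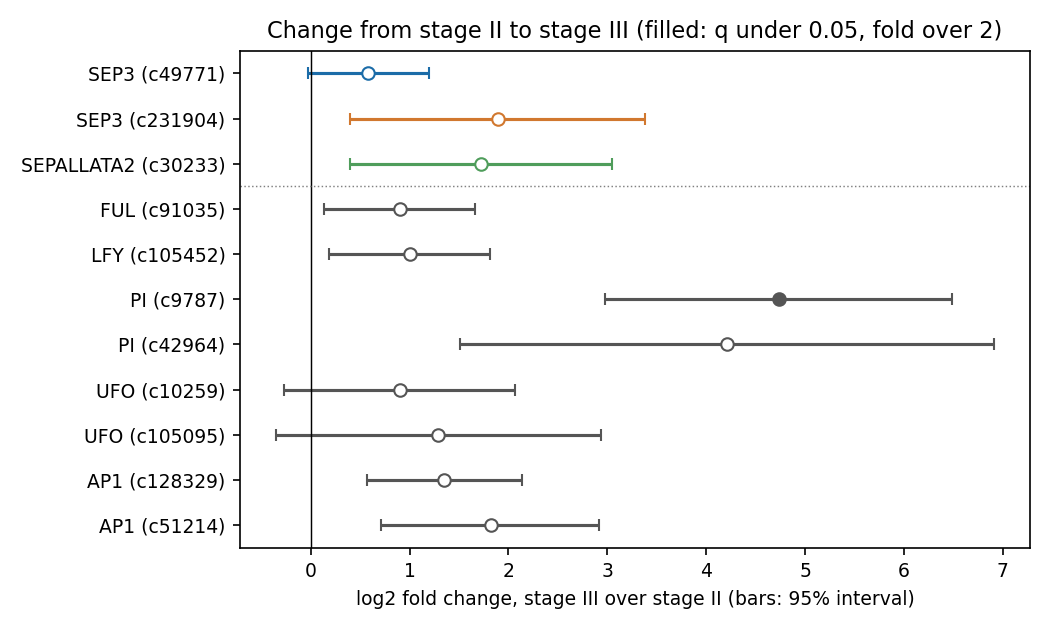
Log2 fold change of stage III over stage II (horizontal axis, bars give the 95% interval from edgeR) for the 3 SEP transcripts (above the dotted line) and 8 floral identity transcripts; filled points were called. SEP3 (c49771) had the smallest change of the 11 at 0.58, and PI (c9787) was the single call at 4.74.

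The spread between replicates was unequal among the copies. The coefficient of variation (CV, SD over mean) of the FPKM of c49771 was 20.2% in stage I, where counting error at its mean count alone gives 22.6%. It was 25.8% in stage II and 27.3% in stage III, where counting error gives 8.02% and 6.83%. Over all transcripts with a mean of at least 10 reads, the median CV was 35.3%, 20.3% and 16.3% in stages I, II and III. In stage II the CV was 91.4% for c231904 and 78.0% for SEPALLATA2, against a counting error of 13.1% and 21.2%. In stage III they were 45.9% and 43.7%, with highest-to-lowest ratios of 2.81 and 2.32 between libraries. In stages II and III each copy thus varied more than counting error gives and more than the median transcript. That median was not matched for read count, and in stage II the counting error of SEPALLATA2 alone, 21.2%, exceeded it. In stage I the CV of SEPALLATA2 was 91.2%, against a counting error of 50.0%. With 12 reads in all and no test run, how far its spread exceeds counting error there is uncertain.

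Likeness over the 9 libraries was measured as Pearson's r of log2 CPM with the 23 other transcripts of the list. These values are descriptions, as the 9 libraries fall into 3 stages, and transcripts that are low in stage I and high later share most of their variation through the stages. Nearest to c49771 were UFO (c10259) at 0.960, FUL at 0.956 and the vacuolar glucose transporter ATVGT1 (c27914) at 0.933. Nearest to c231904 were UFO (c10259) at 0.984, FUL at 0.972 and ATVGT1 (c47156) at 0.956. Nearest to SEPALLATA2 were PI (c9787) at 0.926, PI (c42964) at 0.882 and UFO (c10259) at 0.867. Of all 68174 transcripts, 1.99% had an r of at least 0.95 with c49771, 0.823% with c231904 and 0.0733% with SEPALLATA2. Among the SEP transcripts themselves, r was 0.943 for the SEP3 pair, 0.912 for c231904 and SEPALLATA2 and 0.854 for c49771 and SEPALLATA2.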

How the data were processed

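RNA-seq libraries of 9 bud samples were analysed. Per the file headers and the study's methods, the authors used ng_QC to filter reads, bowtie2 to map them on their long-read transcripts and RSEM to count them, and deposited, for each library, expected counts (not normalized) and FPKM values made from them. Versions are not given in the sources used here, and no genome was used. SEP members, lists and the q value limit were chosen with earlier results of these data known.

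Expected counts were rounded, filtered by filterByExpr (minimum count 10, minimum total 15), normalized by TMM and tested per pair of stages with edgeR 4.0.16 in R 4.3.3 (quasi-likelihood, Benjamini-Hochberg). The SE is the size of the log2 fold change over the square root of F, and the 95% interval uses it. Alternatives used DESeq2 1.42.0 and limma 3.58.1. The default edgeR, DESeq2 and limma fits were also run on simulated counts in which 200 transcripts changed. There limma took CPM in place of FPKM, other settings were not run, and the outcome is not reported here. Likeness used log2 CPM with a prior count of 2 over the 9 libraries. Levels, shares and permutation tests were computed with Python 3.11.15, NumPy 2.4.6 and SciPy 1.17.1. Transcripts named are the 3 SEP transcripts, the 8 identity transcripts of the study's list and, for each SEP transcript, its 3 nearest of the other 23. Total counts of 20065002 to 25195520 limit precision for low transcripts, and PCR reads are not independent molecules, so floors and counting errors cover counting only. No source says that replicates are separate plants, so p-values measure the spread between libraries.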

Additional observations from a re-analysis of the deposited data

How the results depend on the processing

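Of the 2 SEP calls between stages I and II and the 3 between stages I and III, the limit of q under 0.001 left 0 and 0 (q = 0.00766 for c49771 and 0.0228 for c231904 from stage I to II, and 0.00306, 0.00535 and 0.0252 for c49771, c231904 and SEPALLATA2 from stage I to III, all in edgeR). DESeq2 raised the SEP calls from stage II to III from 0 to 1, c231904 (q = 0.0277). Deviations of same-numbered libraries from their stage means correlated by -0.132 to 0.060, and those of differently numbered libraries by -0.102 to 0.135. The replicate numbers thus gave no sign of pairing, though these values cannot show whether same-numbered libraries share an origin. With a replicate block in edgeR the SEP calls from stage I to II fell to 0 (q = 0.0508 for c49771 and 0.0723 for c231904), and SEPALLATA2 was lost from stage I to III (q = 0.0514). Of the identity transcripts, the block ended all 3 calls from stage I to II, that of PI (c9787) from II to III and that of AP1 (c128329) from I to III. From stage I to II, 3 of the identity transcripts were left untested by the filter. DESeq2 and edgeR with all 9 libraries each called 4 of the 8, adding PI (c9787). Over all transcripts, DESeq2 called 8654 of 94121 higher and edgeR with all 9 libraries 8737 of 68174. Without the filter edgeR called 2 of the 8, having lost AP1 (c128329, q = 0.0567), where 5552 transcripts were called higher over all. The block gave 0, 5 and 7718 calls over all transcripts for stage I to II, II to III and I to III, against 11298, 960 and 14488 in edgeR without it. The q value under 0.001 gave 0, 4 and 4. From stage II to III, DESeq2 gave 1956 and all 9 libraries in 1 edgeR fit gave 6.

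With 1 library left out, calls over all transcripts in edgeR were 2163 to 16977, 43 to 923 and 5555 to 21019. SEP calls were 1 to 2, 0 and 2 to 3. The q value of c49771 was 0.00499 to 0.0420 from stage I to II, 0.248 to 0.639 from II to III and 0.00171 to 0.0240 from I to III in edgeR. For c231904 it was 0.0197 to 0.0677, 0.0635 to 0.432 and 0.00324 to 0.0353. For SEPALLATA2 it was 0.0801 to 0.438 from II to III and 0.0243 to 0.1 from I to III. The share of SEPALLATA2 in stage III was 13.6% of summed counts in place of 17.4% of summed FPKM, as its transcript is the shortest. TPM or CPM in place of FPKM moved no level by more than its SD, and no result reversed. The cause of the other changes was not tested. With 0 to 23 reads per library in stage I, depth limits what can be said of any SEP transcript there.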
